A study of Mus musculus with 24 samples.

Results

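The genes described here are the interleukin-6 family ligand Lif, the receptor chains Il6ra, Osmr, Lifr and Il6st, the transcription factor Stat3, its feedback inhibitor Socs3, and the transcription factors Cebpb and Cebpd. They were chosen by name, as the features of the deposited table that carry these symbols, and they are 9 of 28450 features. Cytokines of this family bind receptor chains such as IL-6R, OSMR or LIFR, which pair with the shared signal-transducing chain gp130, the product of Il6st. JAK kinases bound to the receptor then phosphorylate STAT3, which enters the nucleus and switches on target genes, among them Socs3, whose product blocks the receptor complex and ends the signal. C/EBPβ and C/EBPδ are inducible transcription factors of the acute phase response, and Cebpd is a known STAT3 target. In injured kidney the pathway is known for its part in tubular and stromal responses.

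Kidney RNA of C57BL/6 mice was sequenced in 4 groups of 6 libraries, 24 in all. The groups were NLPR3-/- mice given glyoxylate (Gly knockout), wild-type mice given glyoxylate (Gly wild type), NLPR3-/- mice given saline (saline knockout) and wild-type mice given saline (saline wild type). The labels spell the deleted gene NLPR3, and it is Nlrp3 in the deposited table, the sensor of an inflammasome. Glyoxylate is a precursor of oxalate and was used as a model of calcium oxalate nephrocalcinosis. Mice received 75 mg/kg per day or saline, 200 µl into the peritoneum, from day 1 to day 7. The strain and the route were common to all groups, the labels name no Cre or transgene, and they give neither age nor sex. Levels are FPKM, sequenced fragments scaled by transcript length and by all mapped fragments, so they can be set side by side between genes. Differences are on the log2(FPKM + 1) scale, which understates the change of genes with low levels. A gene is said to rise, fall or differ where limma's Benjamini-Hochberg adjusted p over 13020 tested features was under 0.05. Nothing in the labels says that the 6 libraries of a group came from separate cohorts or days, so the p-values speak only of the spread among these kidneys.

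Nlrp3 itself lay between 0.119 and 0.144 FPKM in Gly knockout and between 0.361 and 0.896 FPKM in Gly wild-type kidneys, without overlap. Under saline it lay between 0 and 0.182 FPKM in knockout and between 0.0397 and 0.0886 FPKM in wild-type kidneys, levels too low to check the genotype labels there. Summed FPKM of 4 Y-linked genes was at most 0.0852 in saline knockout libraries 1, 2, 3, 5 and 6, was 33.2 in saline knockout library 4, and ran from 27.1 to 48.7 in the other 18 libraries, so these 5 libraries stand apart from all others. Gly wild-type libraries 1 and 5 stand apart too: ribosomal protein genes took 9.54% and 6.15% of their FPKM, against 5.14% to 5.39% in the other 4 Gly wild-type libraries. The responses of the 9 genes are given with and without these sets. Kidney markers were in place: 8 of 8 proximal tubule genes averaged at least 1 FPKM in each group, and adrenal cortex, T cell and B cell markers all averaged under 1 FPKM.

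All 9 genes entered the test, for which a feature needed at least 1 FPKM in at least 6 libraries. Lif entered only through its levels under Gly, and Il6ra, Osmr and Socs3 did so in large part, so that the number tested supports nothing by itself. The sequences of the 300-base windows at the starts of Socs3, Osmr and Lif, the members with the largest rises in wild-type kidney, are printed here because they are where a transcription factor such as STAT3 could bind. They are RefSeq promoters on build GRCm38.p6, from 250 bases before to 50 bases after the start, written 5′ to 3′ on the gene's strand. Socs3 lies at chr11:117969317-117969616 on the minus strand, Osmr at chr15:6874264-6874563 on the minus strand and Lif at chr11:4257318-4257617 on the plus strand. Capitals mark a match to the STAT motif TTCNNNGAA.
Socs3: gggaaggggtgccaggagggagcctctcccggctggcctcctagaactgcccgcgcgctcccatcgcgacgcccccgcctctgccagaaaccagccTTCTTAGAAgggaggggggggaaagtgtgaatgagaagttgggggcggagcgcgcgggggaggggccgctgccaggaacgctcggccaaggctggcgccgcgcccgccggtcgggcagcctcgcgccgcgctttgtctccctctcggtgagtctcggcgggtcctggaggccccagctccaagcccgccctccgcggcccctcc
Osmr: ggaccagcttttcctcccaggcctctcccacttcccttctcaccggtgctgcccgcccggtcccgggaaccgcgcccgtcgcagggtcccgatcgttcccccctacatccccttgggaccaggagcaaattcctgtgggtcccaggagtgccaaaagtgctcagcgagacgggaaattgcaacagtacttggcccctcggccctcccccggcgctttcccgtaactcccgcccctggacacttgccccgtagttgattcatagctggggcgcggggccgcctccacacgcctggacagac
Lif: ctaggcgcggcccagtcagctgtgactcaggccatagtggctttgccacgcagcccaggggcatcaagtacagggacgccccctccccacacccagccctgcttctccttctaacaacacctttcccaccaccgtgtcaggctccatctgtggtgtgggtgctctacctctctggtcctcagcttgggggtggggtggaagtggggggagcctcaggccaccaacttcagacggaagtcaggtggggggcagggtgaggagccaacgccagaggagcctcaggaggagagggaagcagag
The Socs3 match, TTCTTAGAA, starts at position -154 from the gene's start. Windows were found for 8 of the 9 genes, 9 windows in all because Lifr has more than 1 start, and Cebpd was not matched. Socs3 was the only one of these genes with the STAT motif, which is held by 8.3% of 32851 mouse promoters searched on both strands. The C/EBP motif TTNNGNAA, held by 40.7% of promoters, was found in Il6ra at positions -116 and -70 and in Stat3 at positions -206 and -6. The motifs were searched by their letters, and a match is a description, not evidence of binding.

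Lif encodes leukaemia inhibitory factor, a secreted ligand of the LIFR and gp130 pair, and was close to silent in saline kidneys. It had 0.815, 0.999 and 1.56 FPKM (lowest, median and highest of 6) in Gly knockout and 1.94, 2.61 and 4.58 FPKM in Gly wild-type kidneys. Under saline it had 0.00996, 0.0639 and 0.199 FPKM in knockout and 0.0478, 0.0547 and 0.158 FPKM in wild-type kidneys. Every Gly library lay above every saline library of its genotype, and every Gly knockout library lay below every Gly wild-type library. Lif rose by 0.93 (SE 0.12) in Gly against saline knockout (limma adjusted p = 1.89e-06) and by 1.80 (SE 0.12) in Gly against saline wild type (limma adjusted p = 4.61e-12). In bulk tissue, a higher level of RNA per cell and more cells that make it cannot be told apart. Between the treated genotypes Lif was lower in the knockout by 0.87 (log2 difference -0.87, SE 0.12, limma adjusted p = 1.19e-05), with mean levels of 1.07 ± 0.276 FPKM in Gly knockout and 2.85 ± 0.957 FPKM in Gly wild type (SD, n = 6 each), a ratio of 0.376. Its level came in the order Gly wild type, Gly knockout, then the saline groups, which did not differ beyond their spread (difference 0.0032, 95% interval -0.24 to 0.24).

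**Figure D1:**
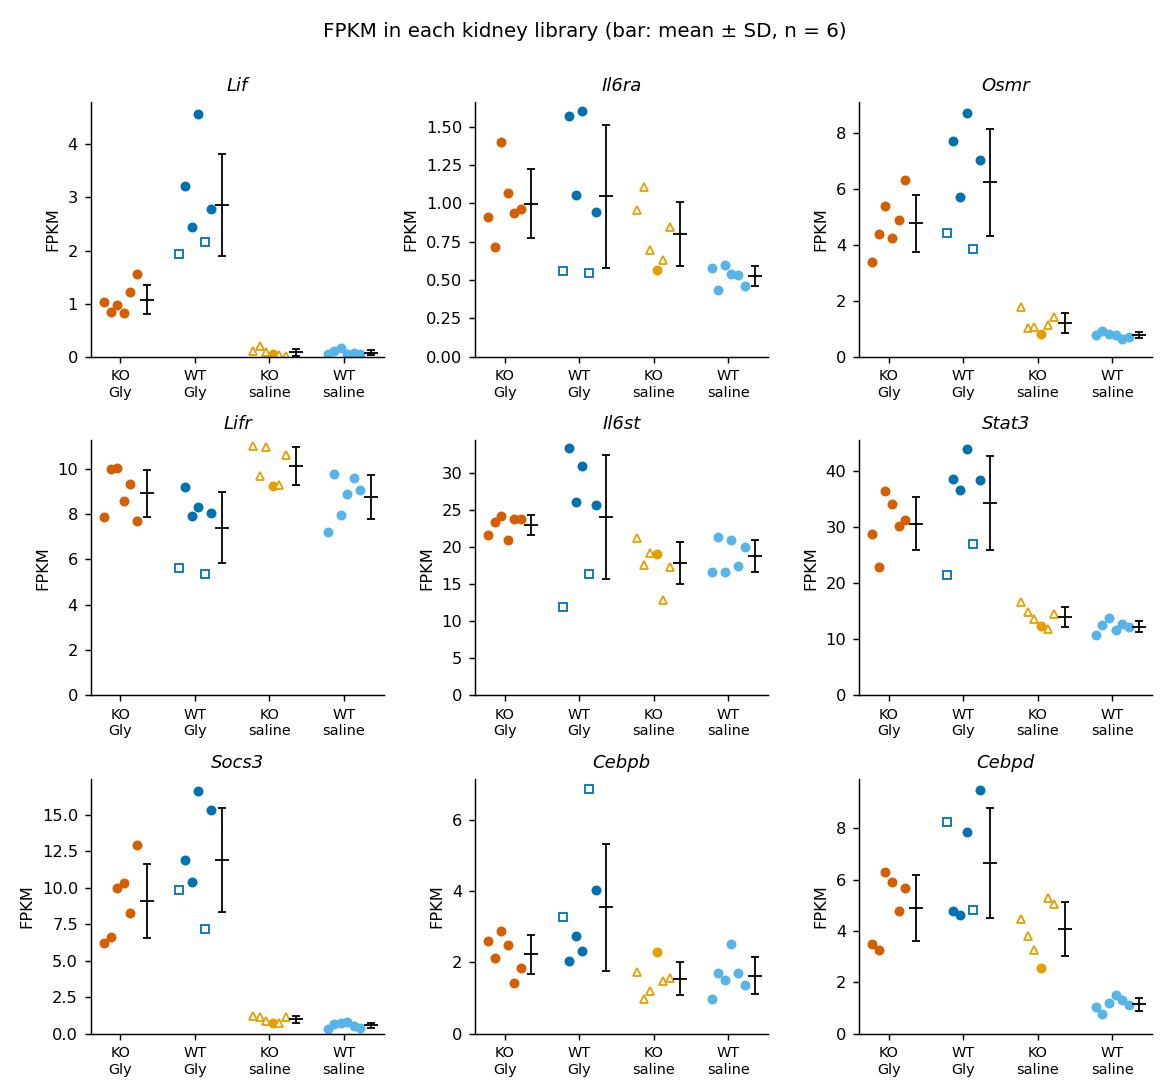
FPKM (y axis, linear, from 0) of the 9 genes in each of 24 kidney libraries by group (x axis: Gly knockout, Gly wild type, saline knockout, saline wild type), with the mean and SD of 6 libraries as a bar. Open squares are Gly wild-type libraries 1 and 5 and open triangles are the saline knockout libraries without Y-linked transcripts. Lif, Osmr, Stat3 and Socs3 are higher in every Gly library than in any saline library, while Cebpd is also high in saline knockout kidneys.

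The receptor chains other than gp130 went different ways. Osmr, the oncostatin M receptor chain, had 3.40, 4.64 and 6.32 FPKM in Gly knockout and 3.86, 6.37 and 8.73 FPKM in Gly wild-type kidneys. It had 0.813, 1.10 and 1.79 FPKM in saline knockout and 0.645, 0.780 and 0.936 FPKM in saline wild-type kidneys. Gly and saline libraries did not overlap in either genotype, while the Gly groups overlapped with each other, as did the saline groups. Osmr rose by 1.38 (SE 0.15) in Gly against saline knockout (limma adjusted p = 1.88e-07) and by 1.99 (SE 0.15) in Gly against saline wild type (limma adjusted p = 3.89e-11). Gly knockout minus Gly wild type was -0.30 (95% interval -0.60 to -0.0021, limma adjusted p = 0.12).

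Il6ra, the ligand-binding chain of the IL-6 receptor, was low in every group. It had 0.712, 0.951 and 1.40 FPKM in Gly knockout and 0.548, 0.997 and 1.61 FPKM in Gly wild-type kidneys. It had 0.563, 0.769 and 1.11 FPKM in saline knockout and 0.433, 0.536 and 0.599 FPKM in saline wild-type kidneys. The lowest Gly wild-type libraries, 1 and 5, reached into the saline wild-type range, and the other 4 lay above it. In Gly against saline knockout the Il6ra difference was 0.15 (95% interval -0.09 to 0.40). Il6ra rose by 0.39 (SE 0.12) in Gly against saline wild type (limma adjusted p = 0.0057), and after quantile normalization this was 0.08 and no call. Gly knockout minus Gly wild type was -0.01 (95% interval -0.26 to 0.24).

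Lifr, the receptor chain that binds LIF, had 7.70, 8.95 and 10.05 FPKM in Gly knockout and 5.35, 7.99 and 9.21 FPKM in Gly wild-type kidneys. It had 9.23, 10.15 and 10.99 FPKM in saline knockout and 7.23, 8.98 and 9.79 FPKM in saline wild-type kidneys. All 4 groups overlapped with at least 1 other group, and Lifr had the only negative differences in the responses to Gly. Gly minus saline was -0.17 (95% interval -0.39 to 0.05) in knockout and -0.23 (95% interval -0.45 to -0.01, limma adjusted p = 0.062) in wild type, and Gly knockout minus Gly wild type was 0.25 (95% interval 0.04 to 0.47, limma adjusted p = 0.072). The wild-type value became a call, at an adjusted p as low as 0.020 by limma, without Gly wild-type library 2, Gly wild-type library 4 or saline wild-type library 1. Without Gly wild-type libraries 1 and 5 the wild-type response of Lifr was -0.05. Gly knockout minus Gly wild type was then 0.08, and neither was a call. After median-ratio scaling all 3 became calls: -0.31 for the knockout response, -0.51 for the wild-type response and 0.31 for Gly knockout minus Gly wild type. After quantile normalization they were calls too, at -0.32, -0.52 and 0.32 in the same order. The median difference over all tested features was 0.12 in the knockout and 0.26 in the wild-type response on the FPKM scale, and median-ratio scaling brought both close to 0. Lifr therefore lay below the typical feature in both responses.

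Il6st, the gp130 chain shared by the family, was among the most abundant of the 9 genes. It had 21.0, 23.6 and 24.2 FPKM in Gly knockout and 11.9, 25.8 and 33.4 FPKM in Gly wild-type kidneys. It had 12.8, 18.3 and 21.2 FPKM in saline knockout and 16.7, 18.7 and 21.4 FPKM in saline wild-type kidneys. Gly wild-type kidneys spread widest, with libraries 1 and 5 at 11.9 and 16.4 FPKM, below every saline wild-type library, and the other 4 between 25.6 and 33.4 FPKM, above them all. Gly minus saline was 0.36 (95% interval 0.01 to 0.71, limma adjusted p = 0.11) in knockout and 0.26 (95% interval -0.08 to 0.61) in wild type, neither a call by limma. By the exact two-sided permutation test the knockout response passed (adjusted p = 0.0115). Without Gly wild-type library 1 the wild-type value was 0.44 and a call (limma adjusted p = 0.0055). Without Gly wild-type libraries 1 and 5 it was 0.60 and a call (limma adjusted p = 3.39e-05), and after median-ratio scaling of all libraries it was -0.04.

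Stat3, the transcription factor of the pathway, had 22.9, 30.7 and 36.4 FPKM in Gly knockout and 21.5, 37.5 and 43.8 FPKM in Gly wild-type kidneys. It had 11.9, 14.0 and 16.6 FPKM in saline knockout and 10.7, 12.4 and 13.7 FPKM in saline wild-type kidneys. No Gly library reached down to the saline range. Stat3 rose by 1.07 (SE 0.13) in Gly against saline knockout (limma adjusted p = 1.7e-06) and by 1.38 (SE 0.13) in Gly against saline wild type (limma adjusted p = 3.43e-09). The Gly groups were not distinguished by the test (Gly knockout minus Gly wild type -0.14, 95% interval -0.41 to 0.14).

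Socs3, the feedback inhibitor, had the largest Gly minus saline difference of the 9 genes in both genotypes on the log2(FPKM + 1) scale. It had 6.21, 9.15 and 12.95 FPKM in Gly knockout and 7.20, 11.2 and 16.7 FPKM in Gly wild-type kidneys. It had 0.727, 1.00 and 1.22 FPKM in saline knockout and 0.342, 0.579 and 0.803 FPKM in saline wild-type kidneys. The lowest Gly library was several times above the highest saline library. Socs3 rose by 2.32 (SE 0.16) in Gly against saline knockout (limma adjusted p = 5.45e-10) and by 3.0 (SE 0.16) in Gly against saline wild type (limma adjusted p = 2.88e-13), with mean levels 9.28 times those under saline in knockout and 20.9 times in wild type. By the ratio of mean FPKM Lif was ahead of it, at 13.1 times in knockout and 36.4 times in wild type. Gly knockout minus Gly wild type was -0.35 (95% interval -0.69 to -0.01, limma adjusted p = 0.11).

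The C/EBP genes differed from the others and from each other. Cebpb had 1.41, 2.31 and 2.88 FPKM in Gly knockout and 2.05, 3.0 and 6.85 FPKM in Gly wild-type kidneys. It had 0.965, 1.53 and 2.29 FPKM in saline knockout and 0.967, 1.60 and 2.52 FPKM in saline wild-type kidneys. Its groups all overlapped, and the highest value was Gly wild-type library 5. In Gly against saline knockout the Cebpb difference was 0.35 (95% interval -0.03 to 0.72). Cebpb rose by 0.73 (SE 0.18) in Gly against saline wild type (limma adjusted p = 0.0012), or 0.40 and no call after quantile normalization, and Gly knockout minus Gly wild type was -0.43 (95% interval -0.81 to -0.06, limma adjusted p = 0.075).

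Cebpd was already high in saline knockout kidneys. It had 3.27, 5.21 and 6.29 FPKM in Gly knockout and 4.64, 6.34 and 9.50 FPKM in Gly wild-type kidneys. It had 2.57, 4.14 and 5.30 FPKM in saline knockout and 0.756, 1.16 and 1.52 FPKM in saline wild-type kidneys. The saline and Gly knockout groups overlapped widely, and every library of the other groups lay above every saline wild-type library. Gly minus saline in knockout was 0.21 (95% interval -0.14 to 0.57) for Cebpd. It rose by 1.79 (SE 0.17) in Gly against saline wild type (limma adjusted p = 3.9e-09), and Gly knockout minus Gly wild type was -0.36 (95% interval -0.72 to 0.00068).

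Set beside each other by median level in Gly wild-type kidneys, Stat3 (37.5 FPKM) came first, then Il6st (25.8), Socs3 (11.2), Lifr (7.99), Osmr (6.37), Cebpd (6.34), Cebpb (3.0), Lif (2.61) and Il6ra (0.997). In saline wild-type kidneys the order was Il6st (18.7 FPKM), Stat3 (12.4), Lifr (8.98), Cebpb (1.60), Cebpd (1.16), Osmr (0.780), Socs3 (0.579), Il6ra (0.536) and Lif (0.0547). Socs3 was thus the third under Gly and the seventh under saline, and Cebpb the seventh under Gly and the fourth under saline. Several neighbours overlapped between libraries, among them Osmr and Cebpd under Gly and Socs3 and Il6ra under saline.

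As a group, 7 of the 9 genes were called higher in Gly against saline wild type and none lower, on a background of 50.2% of tested features called higher and 13.3% called lower. Gly libraries lay above all saline libraries for 5 of the 9 genes, against 31.3% of tested features. The median difference of the 9 genes was 1.38 and that of all tested features 0.26. Without Gly wild-type libraries 1 and 5 the same 7 genes and Il6st were called higher, where 60.3% of tested features were, with 3.20 for Socs3, 2.21 for Osmr, 1.96 for Lif, 1.80 for Cebpd, 1.61 for Stat3, 0.58 for Il6ra and 0.52 for Cebpb. Lifr had -0.05 in that fit and no call. In the knockout response 4 of the 9, Lif, Osmr, Stat3 and Socs3, were called higher and none lower, where 23.7% of tested features were called higher and 5.72% lower. All Gly knockout libraries have Y-linked transcripts, and 5 of the 6 saline knockout libraries lack them. For most of this comparison Gly and that difference cannot be told apart. Without the 5 saline knockout libraries lacking Y-linked transcripts these 4 were called as well, at 0.97 for Lif, 1.65 for Osmr, 1.23 for Stat3 and 2.51 for Socs3, where 4.62% of tested features were called higher. Without those libraries the other 5 had 0.69 for Cebpd, 0.35 for Il6ra, 0.25 for Il6st, -0.04 for Cebpb and -0.05 for Lifr, none a call. For the same 4 every Gly library lay above every saline library, as for 15.5% of tested features, and the medians were 0.36 for the 9 genes and 0.12 for all tested features. In Gly knockout against Gly wild type only Lif was called, and lower, where 21.4% of tested features were called lower and 8.37% higher. Lif was also the only one of the 9 whose Gly knockout libraries all lay below the Gly wild-type libraries, against 6.3% of tested features, and the medians were -0.30 for the 9 genes and -0.06 for all tested features. Lifr, Cebpb, Socs3, Osmr and Cebpd missed the threshold with limma adjusted p between 0.072 and 0.12, which does not show that the genotypes were alike. Each of them except Cebpd became a call without 1 of the libraries: Lifr without Gly wild type 2, Cebpb without Gly wild type 2 or 4, Socs3 without Gly knockout 6 or Gly wild type 5, and Osmr without Gly wild type 5. These comparisons share groups and are set side by side only.

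Markers of other cell types moved with these groups. The summed level of 10 macrophage markers ran from 134 to 401 FPKM in Gly knockout, 245 to 708 FPKM in Gly wild type, 35.8 to 70.5 FPKM in saline knockout and 33.3 to 55.9 FPKM in saline wild type. All 10 were called lower in Gly knockout against Gly wild type, where 21.4% of tested features were called lower and 8.37% higher. The summed level of 7 fibroblast and mural markers ran from 95.3 to 253 FPKM in Gly knockout, 122 to 321 FPKM in Gly wild type, 27.0 to 35.2 FPKM in saline knockout and 18.5 to 29.9 FPKM in saline wild type. The summed level of 8 proximal tubule markers ran from 1974 to 3352 FPKM in Gly knockout, 1281 to 1961 FPKM in Gly wild type, 2864 to 3579 FPKM in saline knockout and 2899 to 3586 FPKM in saline wild type. In the same comparison 4 of the 7 fibroblast and mural markers were called lower and 5 of the 8 proximal tubule markers higher. Macrophage and several fibroblast and mural markers were thus lower in Gly knockout, in the same direction as Lif. The part of all these markers in the results was not tested. Lum, Adgre1, Itgam and Mrc1 averaged under 1 FPKM in the saline groups.

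**Figure D2:**
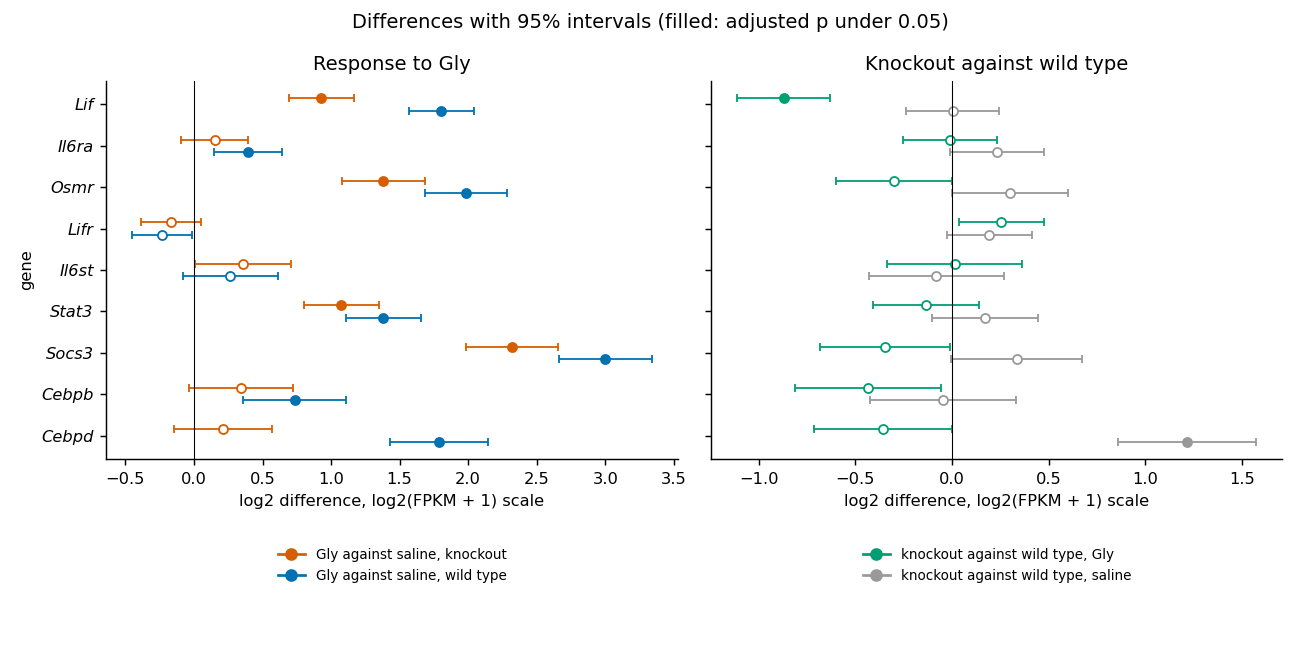
Log2 differences on the log2(FPKM + 1) scale (x axis) for each of the 9 genes (y axis) with 95% intervals from limma, filled where the adjusted p was under 0.05. The left panel has Gly against saline in knockout and in wild type, and the right panel knockout against wild type under Gly and under saline. On the right, Lif under Gly (-0.87) and Cebpd under saline (1.22) are the filled points.

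Under saline, limma called 1 of the 9 genes between the genotypes. Cebpd was higher by 1.22 (SE 0.17) in saline knockout against saline wild type (limma adjusted p = 0.00012), with mean levels of 4.07 ± 1.07 FPKM in saline knockout and 1.15 ± 0.257 FPKM in saline wild type (SD, n = 6 each). Of all tested features 6.92% were called higher, and for 3.94% every saline knockout library lay above every saline wild-type library, as it did for Cebpd. Saline knockout library 4, which has Y-linked transcripts, had the lowest Cebpd level of its group, 2.57 FPKM, against 3.25 to 5.30 FPKM in the 5 libraries without them, and it too lay above all saline wild-type libraries. Without those 5 libraries the difference was 0.74 and no call (limma adjusted p = 1.00), with 1 saline knockout library left, which is assumed to vary like the other groups. For most of this group genotype and the lack of Y-linked transcripts cannot be told apart. Markers of several other cell types were higher in the same comparison. Of 5 podocyte markers 4 were called higher, with summed levels of 50.7 to 111 FPKM in saline knockout and 38.0 to 55.7 FPKM in saline wild type, and of 7 endothelial markers 3 were called higher, with 56.7 to 99.97 FPKM in saline knockout and 49.3 to 58.6 FPKM in saline wild type. In the lists of 3 distal convoluted tubule, 4 principal cell and 7 fibroblast and mural markers, 1 each was called higher. Of 8 proximal tubule markers 1 was called lower. The 3 tested adipocyte markers had a median difference of 0.996 with no call. Summed over 4 adipocyte markers, levels ran from 4.77 to 209.7 FPKM in saline knockout and 2.62 to 131.5 FPKM in saline wild type. The part of all these markers in the Cebpd difference was not tested. The other 8 genes were not called, with differences from -0.08 for Il6st to 0.33 for Socs3. By the exact permutation test of 6 against 6 libraries, two-sided and adjusted over 85 tests, Il6ra (p = 0.015), Osmr (p = 0.015) and Socs3 (p = 0.023) passed as well, all higher in saline knockout. Each of them was lowest in library 4 within the saline knockout group.

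The difference between the responses, the knockout's response minus the wild type's, was tested as an interaction. It was negative and called for 4 of the 9 genes, where 20.3% of tested features were called lower. Cebpd had -1.58 (SE 0.25, limma adjusted p = 0.00012), Lif -0.88 (SE 0.16, limma adjusted p = 0.00055), Socs3 -0.68 (SE 0.23, limma adjusted p = 0.032) and Osmr -0.60 (SE 0.21, limma adjusted p = 0.032). For Lif the saline groups were alike and the treated groups apart. For Cebpd the saline groups were apart and the treated groups overlapped. For Socs3 and Osmr the saline knockout levels were somewhat above and the Gly knockout levels somewhat below those of wild type, and neither difference was called. Leaving out 1 library ended the Socs3 call in 10 of 24 cases (without Gly knockout 1, 2 or 5, Gly wild type 4 or 6, saline knockout 1, 2 or 6, or saline wild type 1 or 6; adjusted p up to 0.061) and the Osmr call in 7 (without Gly knockout 1, Gly wild type 2, 4 or 6, saline knockout 1 or 6, or saline wild type 5; adjusted p up to 0.061). After quantile normalization the Socs3 value was -0.49 and no call. Stat3 gained a call without Gly wild-type library 1 (-0.43, limma adjusted p = 0.038). Without the 5 saline knockout libraries lacking Y-linked transcripts 1 saline knockout library was left. The values were then -1.09 for Cebpd, -0.83 for Lif, -0.49 for Socs3 and -0.33 for Osmr. With 1 library in a group, that fit cannot show whether the calls hold. The interaction uses the saline knockout group, so for most of it genotype, Gly and the lack of Y-linked transcripts cannot be told apart.

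Gly knockout kidneys remained above saline wild-type kidneys in 6 of the 9 genes, where 38.9% of tested features were called higher. The differences were 2.65 for Socs3, 1.68 for Osmr, 1.43 for Cebpd, 1.24 for Stat3, 0.93 for Lif and 0.38 for Il6ra, the last of them 0.09 and no call after quantile normalization. Every Gly knockout library lay above every saline wild-type library for these 6 genes, as for 28% of tested features. Il6st (0.28), Cebpb (0.30) and Lifr (0.02) were not called by limma, and of these Il6st passed the exact two-sided permutation test (adjusted p = 0.0115).

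Gly wild-type libraries 1 and 5 bear on every comparison that uses that group. Both lay below all of the other 4 Gly wild-type libraries in 7 of the 9 genes, all but Cebpb and Cebpd. For Il6ra they had 0.560 and 0.548 FPKM, against 0.941 to 1.61 FPKM in the other 4, and for Stat3 21.5 and 26.9 FPKM, against 36.6 to 43.8 FPKM. Over all tested features with long transcripts (more than 4199 bases) their median deviation from the group was -0.47 and -0.41 on the log2 scale, against -0.01 to 0.16 in the other 4. Over features with short transcripts (at most 2558 bases) it was 0.39 and -0.08. Lifr, Il6st and Il6ra have the longest transcripts of the 9 genes, 9655, 8678 and 8639 bases, and Cebpb the shortest, 1504 bases. Socs3 has 2552 bases, within the short class, and both libraries lay below the other 4 for Socs3 too. They lay below for Lif (4026 bases) and not for Cebpd (3746 bases). The part of transcript length in these results was not tested. Without both libraries 5 of the 9 genes were called lower in Gly knockout against Gly wild type: Lif, Socs3 (-0.55), Osmr (-0.53), Stat3 (-0.36) and Il6st (-0.32), where 32.2% of tested features were called lower. In the interaction 6 were called, with Stat3 (-0.53) and Il6ra (-0.43) added, where 36.9% of tested features were called lower. Leaving out single libraries gave 1 to 3 called genes in Gly knockout against Gly wild type, more than 1 without Gly knockout library 6 or Gly wild-type library 2, 4 or 5.

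**Figure D3:**
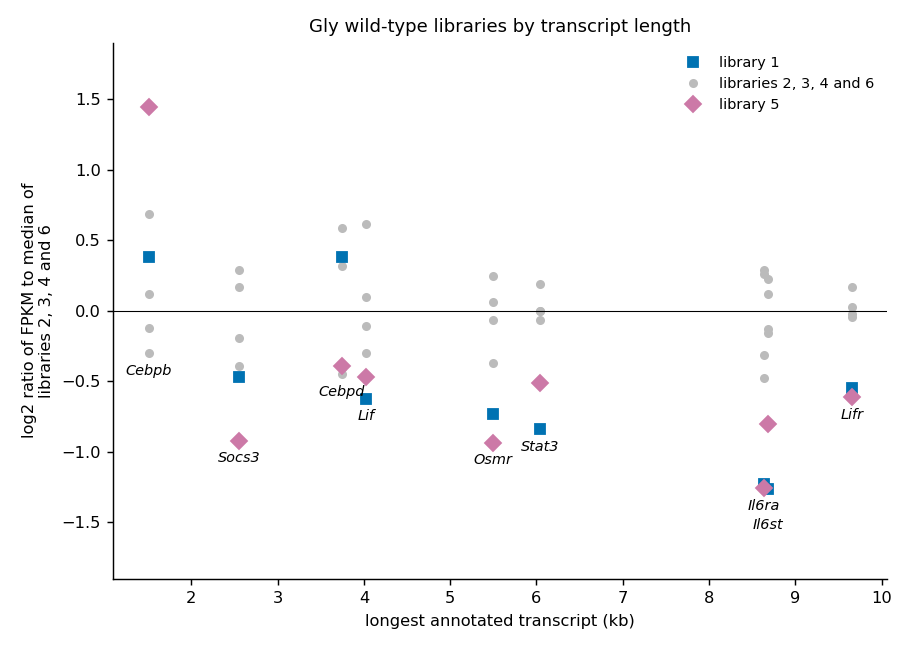
Log2 ratio of FPKM in each Gly wild-type library to the median of libraries 2, 3, 4 and 6 (y axis) for the 9 genes, placed by the length of their longest annotated transcript in kilobases (x axis). Libraries 1 (squares) and 5 (diamonds) lie below the other libraries (grey points) for 7 genes, and for Cebpb, the shortest, library 5 is the highest at 6.85 FPKM.

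The other ligands of the family were examined as a list of 8. Of the 3 that passed the filter, Clcf1 and Cntf were higher in Gly against saline wild type and Ctf1 was not called. Clcf1, cardiotrophin-like cytokine factor, had 2.78, 3.10 and 5.10 FPKM in Gly knockout and 6.02, 9.08 and 10.5 FPKM in Gly wild-type kidneys. It had 0.615, 1.15 and 1.63 FPKM in saline knockout and 0.780, 0.900 and 1.21 FPKM in saline wild-type kidneys. Its Gly groups did not overlap with each other or with the saline groups. Clcf1 rose by 1.05 (SE 0.13) in knockout (limma adjusted p = 1.45e-06) and by 2.32 (SE 0.13) in wild type (limma adjusted p = 3.39e-13), and was lower by 1.16 in Gly knockout against Gly wild type (log2 difference -1.16, limma adjusted p = 1.71e-06). Cntf, ciliary neurotrophic factor, rose by 0.60 in knockout and by 0.39 in wild type. It had no call in knockout after quantile normalization (0.43). Without the 5 saline knockout libraries lacking Y-linked transcripts, which leaves 1 library in that group, its knockout value was 0.52. It had no call in wild type after median-ratio scaling (0.21), after quantile normalization (0.10) or without Gly wild-type libraries 1 and 5 (0.27). Ctf1, cardiotrophin 1, was higher by 0.41 in saline knockout against saline wild type (limma adjusted p = 0.024). Without those 5 saline knockout libraries, with 1 left in the group, the Ctf1 difference was 0.07.

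Il6, Il11, Osm, Il27 and Ebi3 were below the filter and were compared by the exact permutation test. Il6 had 0.0217, 0.104 and 0.322 FPKM in Gly knockout and 0.382, 0.515 and 0.590 FPKM in Gly wild-type kidneys, and it was listed at 0 in all 6 saline knockout and 5 of 6 saline wild-type libraries. The treated groups did not overlap (adjusted p = 0.0066 by the exact two-sided permutation test, from the smallest p it can give, 0.0022). Il11 had 0.175, 0.316 and 0.571 FPKM in Gly knockout and 0.490, 0.670 and 1.01 FPKM in Gly wild-type kidneys, with overlap (adjusted p = 0.015 by the exact permutation test). Ebi3, a subunit shared by IL-27 and IL-35, averaged 0.533 FPKM in Gly knockout and 1.37 FPKM in Gly wild type (adjusted p = 0.023 by the exact permutation test). Osm, oncostatin M, averaged 0.0661 FPKM in Gly knockout and 0.142 FPKM in Gly wild type, was listed at 0 in all 6 saline wild-type libraries, and was not distinguished between the treated genotypes (adjusted p = 0.17 by the exact permutation test). Il27 was listed at 0 in all 6 Gly knockout libraries and 2 of 6 Gly wild-type libraries. Such low levels rest on few fragments, and the depth is unknown.

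**Figure D4:**
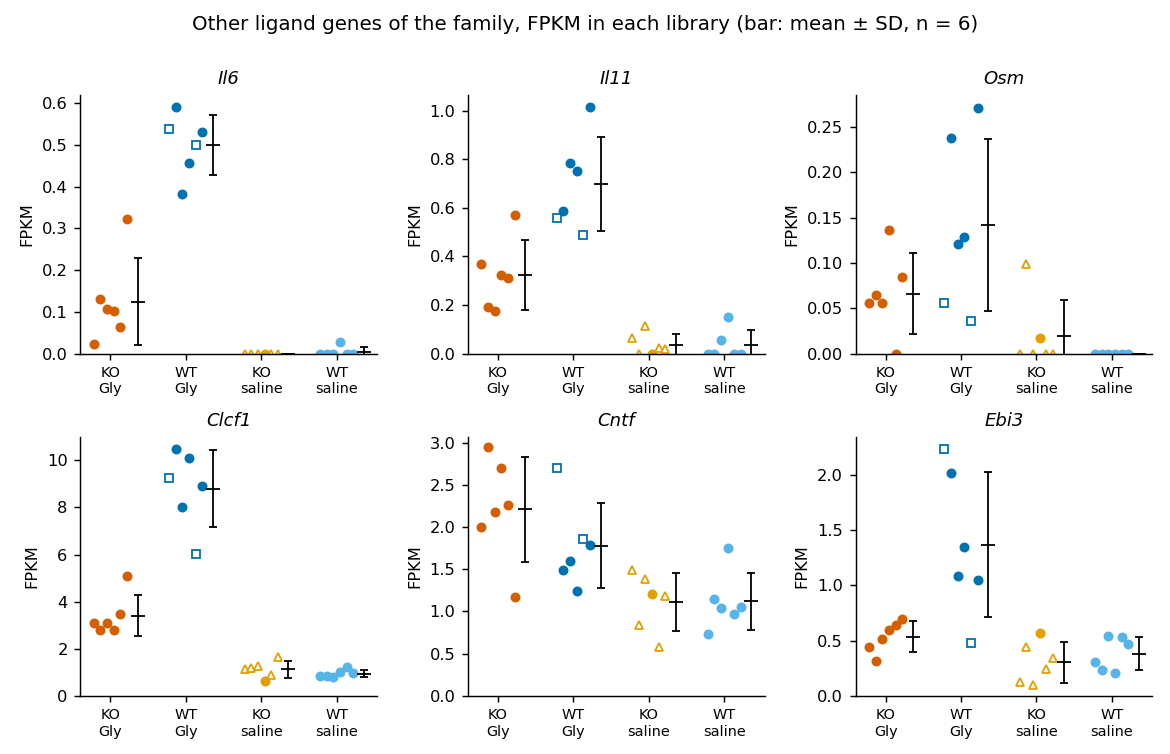
FPKM (y axis, linear, from 0) of Il6, Il11, Osm, Clcf1, Cntf and Ebi3 in each library by group (x axis), with the mean and SD of 6 libraries as a bar and the same symbols as in the plot of the 9 genes by sample. Gly knockout libraries lie below all Gly wild-type libraries for Il6 and Clcf1, where they reach 0.322 and 5.10 FPKM against at least 0.382 and 6.02 FPKM.

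Other receptors of the family were examined as well. Cntfr, the receptor chain of ciliary neurotrophic factor, averaged 2.64 FPKM in Gly knockout, 1.43 FPKM in Gly wild type, 5.46 FPKM in saline knockout and 2.96 FPKM in saline wild type. It fell by 0.84 in the knockout response and by 0.71 in the wild-type response, and was higher in the knockout both under Gly (0.56) and under saline (0.69). Without the 5 saline knockout libraries lacking Y-linked transcripts 1 library of that group is left. The Cntfr knockout response was then -0.21 and the saline difference 0.05. Lepr, the leptin receptor, was higher in Gly knockout against Gly wild type (0.64, limma adjusted p = 0.018). Without Gly wild-type libraries 1 and 5 neither Cntfr (0.43) nor Lepr (0.36) was called under Gly. Il27ra, below the filter, had 0.191 to 0.536 FPKM in Gly knockout and 0.639 to 1.16 FPKM in Gly wild-type kidneys, without overlap (adjusted p = 0.0066 by the exact permutation test).

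Among 7 JAK kinases, STATs and adaptors, 4 rose and 1 fell in Gly against saline wild type, close to the 50.2% and 13.3% of all tested features, and after median-ratio scaling this was 1 and 2. Jak1, the main kinase on gp130, rose by 0.36 in knockout and by 0.49 in wild type, but after median-ratio scaling Jak1 was called in neither (0.21 in knockout and 0.19 in wild type). Stat5b fell by 0.37 in wild type, and without Gly wild-type libraries 1 and 5 it had -0.14 and no call. Of 11 further feedback inhibitors 10 were tested and 5 rose in wild type with none lower, close to the 50.2% of all tested features, which became 4 and 3 after median-ratio scaling. In Gly knockout against Gly wild type 3 of the 10 were lower, Socs2, Socs4 (-0.31) and Ptpn6 (-0.26), and 1 was higher, Cish (0.46), where 21.4% of tested features were lower and 8.37% higher. Socs2, a growth hormone pathway inhibitor, rose by 1.00 in wild type, and was lower in Gly knockout against Gly wild type (-0.65, limma adjusted p = 0.040), a call that was lost for Socs2 after median-ratio scaling (-0.58). Ptpn2, a phosphatase of JAK1 and STATs, rose by 0.35 in knockout and by 0.58 in wild type, with 0.21 and no call for Ptpn2 in knockout after median-ratio scaling.

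Of 5 relatives of the C/EBP genes 4 were tested and 3 rose in Gly against saline wild type (50.2% of all tested features did), 2 after median-ratio scaling, and limma called none in Gly against saline knockout (23.7% of all tested features were higher). Ddit3, which encodes CHOP of the endoplasmic reticulum stress response, averaged 9.14 FPKM in Gly knockout, 21.8 FPKM in Gly wild type, 9.13 FPKM in saline knockout and 6.97 FPKM in saline wild type. As lowest, median and highest value Ddit3 had 8.06, 9.18 and 10.5 FPKM in Gly knockout and 13.4, 16.8 and 43.6 FPKM in Gly wild-type kidneys. Its difference was 0.00 in knockout, it rose by 1.40 in wild type, and was lower by 1.05 in Gly knockout against Gly wild type (log2 difference -1.05, limma adjusted p = 0.00021). Cebpg, a partner of ATF4, rose by 0.65 in wild type and was lower in Gly knockout against Gly wild type (-0.36, limma adjusted p = 0.0019).

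All 14 genes of a list of known STAT3 targets rose in Gly against saline wild type, where 50.2% of all tested features did, with a median difference of 1.77, against 0.26 over all tested features. After median-ratio scaling 13 and after quantile normalization 12 of them did. The list was chosen with earlier results of these data known, so its counts are a description and support nothing by themselves. In Gly against saline knockout 12 of 14 rose, where 23.7% of all tested features did (median 1.46, against 0.12), all but Bcl2l1 and Pim1. Leaving out the 5 saline knockout libraries lacking Y-linked transcripts leaves 1 library in that group, too few to count calls. Lcn2, the secreted injury marker lipocalin 2, averaged 129 FPKM in Gly knockout, 190 FPKM in Gly wild type, 2.73 FPKM in saline knockout and 3.64 FPKM in saline wild type. Timp1, a metalloproteinase inhibitor, averaged 9.88 FPKM in Gly knockout, 27.9 FPKM in Gly wild type, 0.156 FPKM in saline knockout and 0.173 FPKM in saline wild type. Timp1 entered the test only through its levels under Gly, while Lcn2 was above 1 FPKM in every saline library. Both rose in both genotypes, Lcn2 by 5.14 in knockout and 5.44 in wild type, and Timp1 by 3.11 in knockout and 4.60 in wild type.

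Between the treated genotypes 7 of the 14 targets were lower and 1 higher in the knockout, where 21.4% of tested features were lower and 8.37% higher (median -0.35, against -0.06 over all tested features). Without Gly wild-type libraries 1 and 5 these were 8 lower and 1 higher, where 32.2% of tested features were lower. All 14 then rose in wild type, where 60.3% of tested features did. The lower ones were Timp1 (-1.52), the growth regulator Myc (-1.12), the leukocyte adhesion molecule Icam1 (-0.71), the AP-1 component Junb (-0.68), the NF-kB cofactor Bcl3 and the survival factors Bcl2l1 and Mcl1. Fga, a fibrinogen chain of the acute phase response, was higher (1.00, SE 0.34, limma adjusted p = 0.026), a call lost for Fga with the compared groups alone (limma adjusted p = 0.11), with 17.7, 59.1 and 165 FPKM in Gly knockout and 22.7, 26.1 and 64.1 FPKM in Gly wild-type kidneys. Fgg, another fibrinogen chain, averaged 99.1 ± 77.8 FPKM in Gly knockout and 48.0 ± 27.7 FPKM in Gly wild type (SD, n = 6 each), with 0.80 and no call (limma adjusted p = 0.15). Fgb (0.58), Pim1 (0.21) and Ccnd1 (0.10) also had positive differences and no call, so that 5 of the 14 differences were positive, and these genes are given values because of that direction, seen in the data. The same 7 genes that were lower had a called interaction, each negative, where 20.3% of tested features were called lower, and of them Bcl2l1 (-0.38) and Bcl3 (-0.63) were not called after median-ratio scaling. Without the 5 saline knockout libraries lacking Y-linked transcripts 1 saline knockout library was left, too few to judge these interactions.

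**Figure D5:**
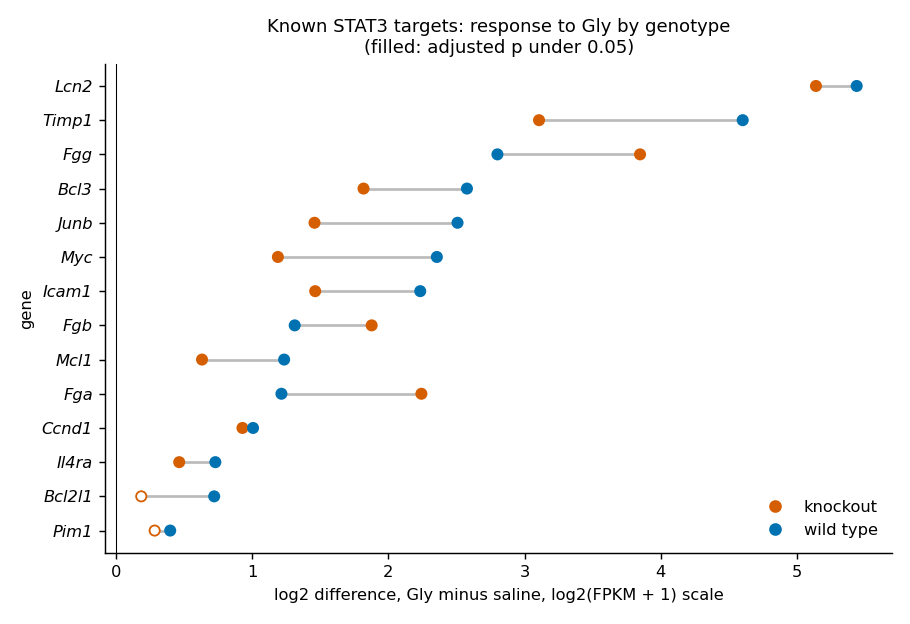
Log2 difference of Gly minus saline (x axis, log2(FPKM + 1) scale) of 14 known STAT3 targets (y axis) in knockout and in wild type, filled where limma's adjusted p was under 0.05. All 14 points of wild type are filled and 12 of knockout, and the fibrinogen genes Fga, Fgb and Fgg have their knockout points to the right.

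Within groups, the features whose levels varied most like each gene were found by Pearson correlation of deviations from group means over 18 libraries, the saline knockout group left out. Socs3 varied most like Inf2 (r = 0.903), Csf2rb (r = 0.886) and Sdc1 (r = 0.881). Among the features most like Lif were Ch25h (r = 0.905) and Gbp5 (r = 0.897). Osmr varied most like Frmd6, Armcx4 and Pxdn, Stat3 like Tmcc3, Akap12 and Piezo1, and Il6st like Secisbp2l, Gab2 and Cdc42bpa. Lifr varied most like Mertk, Cpm and Bcr, Il6ra like Kctd10, Acer2 and St3gal1, Cebpb like Tmem238, Scand1 and Ifrd1, and Cebpd like Tacc2, Ifitm10 and Rasd1. The r was 0.978 for Il6st with Secisbp2l and 0.932 for Il6ra with Kctd10. Without Gly wild-type libraries 1 and 5, over 16 libraries, the r of the same pairs was 0.862 and 0.835, that of Socs3 with Inf2 was 0.882 and that of Lif with Ch25h was 0.875. The points share library, normalization and any difference in RNA quality, and these values are a description.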

How the data were processed

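TruSeq libraries were made from 1 µg of Trizol-extracted total RNA per kidney, per the labels' protocols. The authors deposited FPKM values for 24 libraries in a single table. Bowtie 0.12.2, mm8 and mm9 are listed in the submitters' processing notes without a role. How FPKM was computed, and whether strand was used, is not given in the sources used here, so antisense partners may share reads. No coordinates are given for the files' features. The depth is unknown: for features under a mean of 0.05 FPKM, no step of whole reads appeared (at most 2.74% had a common ratio for any pair of libraries). FPKM sums were 439749 to 539018, and library correlations 0.866 to 0.993, so no library was a copy of another.

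Groups and replicate numbers came from the sample titles. A feature was tested where 6 or more libraries had 1 FPKM or more (13020, including 686 gene models added by the authors). The test was limma 3.58.1 (R 4.3.3) with trend on log2(FPKM + 1), two-sided, with Benjamini-Hochberg adjustment; every library entered the fit, with a mean for each group. It was first tested on simulated data. Exact permutation tests of 6 against 6 libraries (924 arrangements, smallest p 0.0022, scipy 1.17.1) covered the 9 genes and the pathway genes below the filter, 85 tests in all. Pathway genes named come from fixed lists, up to 4 with the smallest p for each list and comparison (Fga, Fgb, Fgg, Pim1, Ccnd1, Osm and Il27 were added after their values were seen), and the similar features are the top 3 for each gene. Some genes that this rule names are not reported here. The members and lists were chosen with earlier results of these data known. Alternatives were another pseudocount, other filters and scalings, sample weights, the compared groups alone, a replicate block and leaving out libraries. Same-numbered libraries did not deviate together (median r -0.02 over 36 pairs), so numbers were not taken as pairs. Promoter sequences are RefSeq's.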

Additional observations from a re-analysis of the deposited data

Results flagged for a closer look

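In 4 of the 9 genes the response to Gly differed between the genotypes by the test of the difference itself (limma, knockout response minus wild-type response, adjusted over 13020 features), where 20.3% of tested features were called lower. Without the 5 saline knockout libraries lacking Y-linked transcripts 1 saline knockout library was left. All 4 differences stayed negative there, and that fit cannot show whether the calls hold. For most saline knockout libraries, genotype and the lack of Y-linked transcripts cannot be told apart in these 4 differences. Cebpd had -1.58, from responses of 0.21 in knockout and 1.79 in wild type. Lif had -0.875, from responses of 0.93 in knockout and 1.80 in wild type. Socs3 had -0.681, from responses of 2.32 in knockout and 3.0 in wild type, and Osmr had -0.604, from responses of 1.38 in knockout and 1.99 in wild type. In 36 groups of 6 libraries no value of these genes stood apart from the rest of its group by Dixon's criterion (0.625 for 6 values).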

How the results depend on the processing

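Counts of the 9 genes called held within 1.5 times, apart from the following. In Gly knockout against Gly wild type, in place of 1 gene, the count was 2 after median-ratio scaling or quantile normalization (1 higher, 1 lower), 4 with sample weights, 5 without Gly wild-type libraries 1 and 5, 1 to 3 leaving out single libraries, and 0 of 6 by limma with the filter raised to 5 FPKM (1 at an unadjusted p under 0.05), where Lif, Il6ra and Cebpb have no value. In saline knockout against saline wild type, in place of 1, it was 2 with a pseudocount of 0.1, 4 with the compared groups alone, 6 with sample weights, and by limma 0 without the saline knockout libraries lacking Y-linked transcripts (1 at an unadjusted p under 0.05). In the interaction, in place of 4, it was 2 with no filter, 0 by limma without those libraries (2 at an unadjusted p under 0.05) and 2 to 5 leaving out single libraries. In Gly against saline wild type, in place of 7, it was 4 of 6 with the filter at 5 FPKM. Over all tested features the count for saline knockout against saline wild type also rose with the compared groups alone and with sample weights, as given below. The higher counts of the 9 genes in those settings therefore say little of these genes by themselves. The cause of these moves was not tested, beyond the fewer genes or libraries that a filter or an omission leaves. Without the saline knockout libraries lacking Y-linked transcripts 1 library of that group is left, so those counts cannot show whether the calls hold.

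Of 1269 alternative values for single genes 1155 kept direction and call, 28 lost a call, 43 gained one and 43 changed sign. No value called in the fit reported changed sign. For Gly knockout against Gly wild type, Il6ra was 0.020 with a pseudocount of 0.1, 0.031 after median-ratio scaling, 0.0026 after quantile normalization and -0.084 to 0.066 leaving out single libraries; Il6st was -0.23 with sample weights, -0.32 without Gly wild-type libraries 1 and 5 and -0.16 to 0.12 leaving out single libraries. For Gly against saline, Il6st in wild type was -0.038 after median-ratio scaling, Il6ra in knockout was -0.044 after quantile normalization, and Cebpb in knockout was -0.045 without the libraries lacking Y-linked transcripts. For Gly knockout against saline wild type, Lifr was -0.20 after either scaling (called after quantile normalization) and -0.023 to 0.061 leaving out single libraries. In the interaction, Il6st was -0.16 with sample weights, -0.0096 without the libraries lacking Y-linked transcripts, -0.24 without Gly wild-type libraries 1 and 5 and -0.082 to 0.20 leaving out single libraries; Lifr was -0.071 with sample weights, -0.12 without Gly wild-type libraries 1 and 5 and -0.015 to 0.12 leaving out single libraries. For saline knockout against saline wild type, Lif was -0.016 with a pseudocount of 0.1, -0.0050 after median-ratio scaling, -0.0030 with sample weights, -0.041 without the libraries lacking Y-linked transcripts and -0.027 to 0.024 leaving out single libraries. There, without the libraries lacking Y-linked transcripts, Il6st was 0.022 and Cebpb 0.34, and leaving out single libraries gave -0.13 to 0.0056 for Il6st and -0.13 to 0.043 for Cebpb.

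With the replicate number as a block the counts of these genes were 7 for Gly against saline in wild type, 1 for Gly knockout against Gly wild type, 4 for Gly against saline in knockout, 1 for saline knockout against saline wild type, 6 for Gly knockout against saline wild type and 4 for the interaction, and over all features 8217, 3707, 3698, 1165, 5830 and 3266. Same-numbered libraries correlated at -0.37 to 0.30 over 36 pairs, 7 of them over 0.1, so the numbers give no pairing. Over all features, the count moved by over 1.5 times to 2168 for Gly knockout against Gly wild type and 2746 for saline knockout against saline wild type with the compared groups alone. With sample weights it was 6058 for Gly against saline in knockout, 5560 for saline knockout against saline wild type and 6896 for the interaction. Without the saline knockout libraries lacking Y-linked transcripts these were 741, 0 by limma (101 at an unadjusted p under 0.05) and 10, and without Gly wild-type libraries 1 and 5 the interaction had 5719. Both omissions were chosen after seeing the data. The unknown depth limits what can be said of genes under 1 FPKM.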
